A study of Mus musculus with 12 samples.

Results

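The genes described here are 42 mouse genes for collagens, basement membrane components and other matrix proteins, taken by name. All 42 were found by symbol among the 55416 genes of a count table from C2C12, a mouse myoblast cell line, and 38 had enough counts to be tested. RNA was sequenced from 12 libraries in 4 groups of 3 biological replicates: cells labelled Mapk14 knockout (KO) after 5 days in differentiation medium (KO DM, 2% horse serum), KO-labelled cells kept in growth medium (KO GM, 10% fetal bovine serum), and wild-type cells in the same media (WT DM and WT GM). The sources used here do not give how the gene was edited or how many knockout clones there were, so a difference between clones and a difference between genotypes cannot be told apart.

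Muscle cells are embedded in an interstitial matrix of fibrils, mainly of collagens I, III and V, and are wrapped in a basement membrane, in which networks of collagen IV and laminin are tied together by nidogens and perlecan. Myoblasts and the fibroblasts of muscle secrete these proteins, small leucine-rich proteoglycans bind to the fibrils, and matricellular proteins modulate how cells attach to them. Mapk14 encodes the kinase p38 alpha, which is known to promote myogenic differentiation.

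Library totals were 8821669 to 11536396 counts, and 16039 to 16677 genes had a count. Levels are given as CPM, counts normalized to library size with TMM scaling, and changes as log2 fold changes ± SE. A gene was called when its adjusted p from edgeR's quasi-likelihood test, over 13250 genes, was below 0.05, and only called genes are said to have risen or fallen. Mapk14 was at 130, 136 and 137 CPM in KO GM, against 130, 135 and 108 CPM in WT GM, and at 93.7, 89.9 and 84.5 CPM in KO DM, against 93.8, 91.1 and 88.6 CPM in WT DM. The libraries labelled KO thus did not hold less Mapk14 RNA (0.11 ± 0.08 in GM, adjusted p = 0.35, and -0.03 ± 0.08 in DM, adjusted p = 0.82), and genotype directions below are by label. The replicate 3 libraries of both GM groups stood apart from their group. Pairs of GM libraries that included replicate 3 had a chi-square per degree of freedom of 9.92 to 14.99, against 6.46 for the other KO GM pair and 3.58 for the other WT GM pair. Matrix genes were among those that set them apart: the fibrillar collagen gene Col3a1 was at 4113 CPM in KO GM replicate 3, against 2360 and 2324 CPM in the other KO GM libraries, and at 5024 CPM in WT GM replicate 3, against 2732 and 3159 CPM in the other WT GM libraries. Counts of called genes are therefore also given with both GM replicate 3 libraries left out. As matrix genes helped to set these libraries apart, calls gained in that way are no separate support for a change.

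The 42 genes together held a larger share of all counts in DM than in GM. It was 4.17 ± 0.11% in KO DM and 2.38 ± 0.43% in KO GM, and 3.67 ± 0.39% in WT DM and 2.51 ± 0.26% in WT GM (SD, n = 3 each). The DM and GM libraries did not overlap in either genotype, and the exact permutation test gave 0.1 (2-sided) for both, the smallest p that 3 against 3 allows. Between genotypes it gave 0.7 in GM and 0.2 in DM. Fn1, Col3a1, Sparc, Bgn, Thbs1 and Col1a2 held 59.5 to 67.0% of these counts. Per kilobase of transcript, the highest mean levels in KO DM were those of Sparc (3084 CPM per kb), Bgn (1546 CPM per kb), Col3a1 (1043 CPM per kb) and Fn1 (705 CPM per kb). Sparc, Bgn and Col3a1 also led in this order in the other 3 groups.

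**Figure D1:**
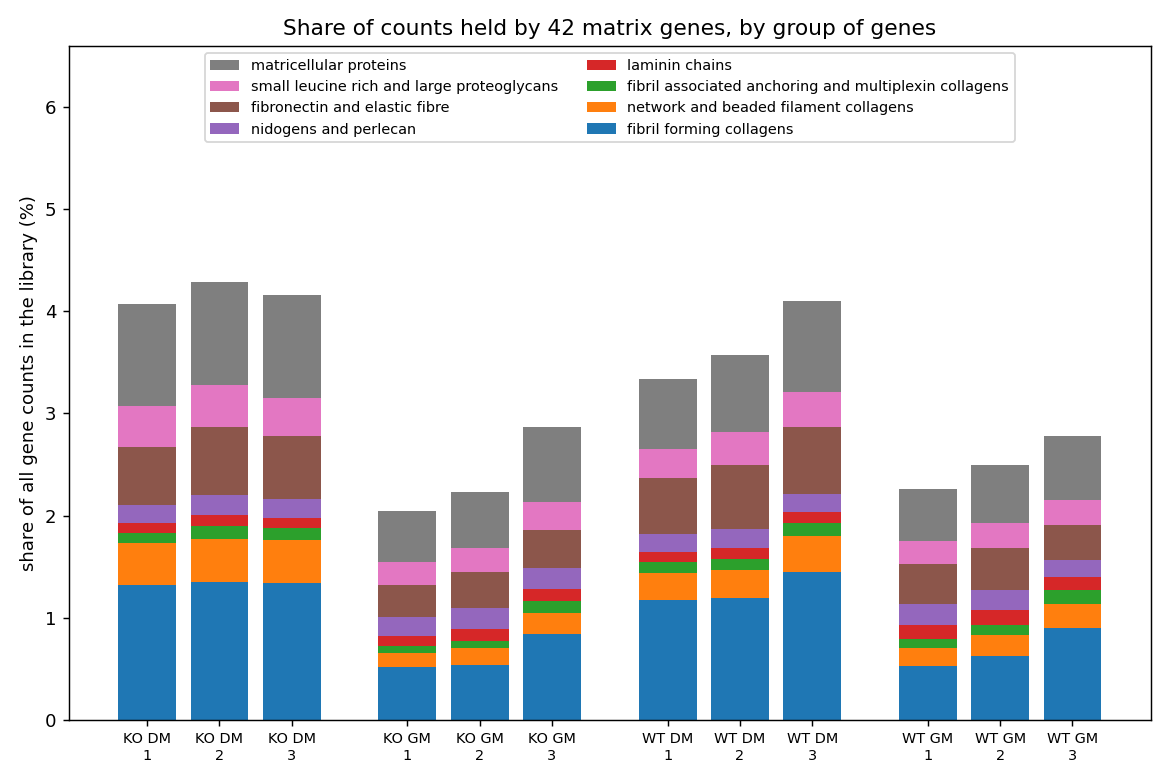
Share of all gene counts held by the 42 matrix genes in each library (y axis, percent), stacked by group of genes, with the libraries of each group numbered by replicate. The bars reach 4.07 to 4.29% in KO DM and 2.05 to 2.87% in KO GM, with replicate 3 the tallest of the KO GM libraries.

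At the other end, 4 genes were near absent. Lum (lumican) had 6 counts over the 12 libraries, Eln (elastin) 9, Fbn2 (fibrillin 2) 1 and Col15a1 38, and none was tested. A count of 3, the floor that a count of 0 allows, was 0.26 to 0.345 CPM, and intervals and floors cover counting error only. The gene for the fibril-binding proteoglycan decorin, Dcn, lies next to Lum on chromosome 10 and was well detected in WT libraries.

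The comparison of DM with GM asks how matrix expression changes as myoblasts are put into differentiation medium, and in both genotypes most of the tested matrix genes rose. In KO-labelled cells 27 of 38 rose and 8 fell, where 20.8% and 19.8% of all 13250 genes tested did so. In WT cells 23 of 38 rose and 5 fell, against 18.4% and 14.8% of all genes tested. The 8 and 5 that fell, 21.1% and 13.2% of the 38, were near the shares over all genes. The median change was 0.81 in KO-labelled cells and 0.68 in WT cells, against a median over all tested genes of -0.00 and -0.01. All 23 genes that rose in WT also rose in KO-labelled cells, and all 5 that fell in WT also fell there. With both GM replicate 3 libraries left out, 29 rose and 7 fell in KO-labelled cells, where the shares over all genes were 24.3% and 20.4%, and 27 rose and 5 fell in WT cells, where they were 21.1% and 18.5%. In bulk RNA, fewer cells of a type and less RNA per cell cannot be told apart. Markers of muscle were also higher in DM: the summed level of 8 myogenic markers was 3139 to 3603 CPM in KO DM, 547 to 814 CPM in KO GM, 7242 to 7408 CPM in WT DM and 2030 to 2645 CPM in WT GM, and its part in the matrix results was not tested.

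**Figure D2:**
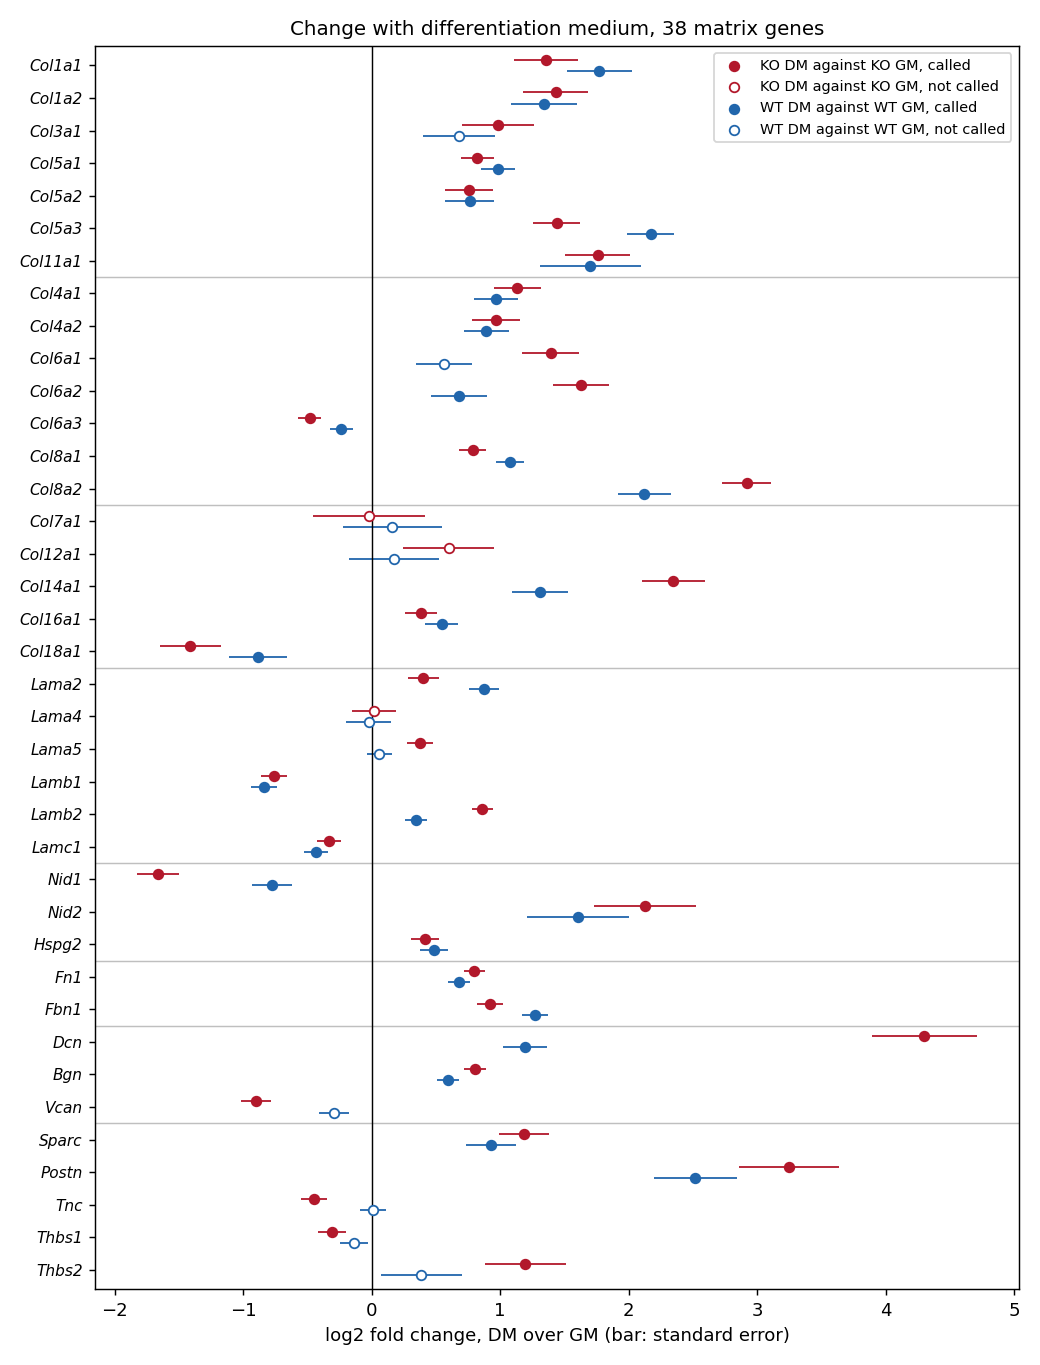
Log2 fold change of DM over GM with its standard error for the 38 tested matrix genes, in KO-labelled cells (red) and WT cells (blue); filled points are called, open points are not, and grey lines part the groups of genes. Most points lie right of 0 in both genotypes, while Col18a1, Nid1, Lamb1, Lamc1 and Col6a3 lie left of it in both. Vcan and Thbs1 also lie left of it in both, with open points in WT.

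The promoters of 6 genes are shown because the genes moved in the same direction in both genotypes, Postn, Col8a2 and Col5a3 upward and Nid1, Col18a1 and Lamb1 downward. They were the 3 genes with the highest and the 3 with the lowest mean change over both DM to GM comparisons among 21 genes with at least 150 bases free of annotated exons in the 250 bases before the gene start. A first rule that asked for all 250 bases to be exon-free was replaced after the genes it left had been seen, and no test rests on the choice. The sequences are from RefSeq (GRCm38.p6), 5′ to 3′ on the strand of the gene, and capitals mark matches to CCAAT or GGGCGG on either strand.
Postn, chr3:54359017-54359266, plus strand: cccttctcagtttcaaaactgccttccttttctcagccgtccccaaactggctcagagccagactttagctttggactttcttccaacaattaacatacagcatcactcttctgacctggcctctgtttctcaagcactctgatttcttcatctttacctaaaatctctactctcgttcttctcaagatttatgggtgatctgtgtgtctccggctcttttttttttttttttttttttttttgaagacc
Col8a2, chr4:126286544-126286792, plus strand: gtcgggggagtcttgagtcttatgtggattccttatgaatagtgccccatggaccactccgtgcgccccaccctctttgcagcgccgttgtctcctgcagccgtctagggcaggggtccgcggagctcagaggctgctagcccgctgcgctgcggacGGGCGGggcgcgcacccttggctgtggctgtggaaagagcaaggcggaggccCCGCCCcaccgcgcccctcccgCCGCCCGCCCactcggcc
Col5a3, chr9:20815068-20815317, minus strand: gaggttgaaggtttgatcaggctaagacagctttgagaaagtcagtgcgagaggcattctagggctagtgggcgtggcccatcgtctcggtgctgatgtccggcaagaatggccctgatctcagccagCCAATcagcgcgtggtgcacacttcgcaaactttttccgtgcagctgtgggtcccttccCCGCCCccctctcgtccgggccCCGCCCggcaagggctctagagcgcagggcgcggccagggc
Nid1, chr13:13437352-13437550, plus strand: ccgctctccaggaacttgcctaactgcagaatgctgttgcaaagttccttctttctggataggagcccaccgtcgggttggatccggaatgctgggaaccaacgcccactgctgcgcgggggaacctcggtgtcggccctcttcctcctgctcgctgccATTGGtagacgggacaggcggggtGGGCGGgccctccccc
Col18a1, chr10:77166549-77166780, minus strand: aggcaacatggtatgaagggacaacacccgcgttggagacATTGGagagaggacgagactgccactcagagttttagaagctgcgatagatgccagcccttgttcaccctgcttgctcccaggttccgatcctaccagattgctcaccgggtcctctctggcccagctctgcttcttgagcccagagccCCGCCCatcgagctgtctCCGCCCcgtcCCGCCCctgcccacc
Lamb1, chr12:31265043-31265233, plus strand: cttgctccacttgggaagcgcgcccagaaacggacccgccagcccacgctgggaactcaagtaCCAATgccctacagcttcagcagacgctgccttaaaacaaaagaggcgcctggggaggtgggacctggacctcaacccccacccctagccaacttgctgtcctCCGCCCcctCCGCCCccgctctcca
Each of 6 motifs was searched on both strands: TATAAA (the TATA box), CCAAT (the CCAAT box), GGGCGG (the GC box), CANNTG (the E-box core), TGANTCA (the AP-1 site) and GTCTAGAC (a SMAD element). The GC box was found in 5 of these 6 sequences, all but Postn, and the CCAAT box in 4 of 6, Col5a3, Nid1, Col18a1 and Lamb1. Of 32851 promoters in the table, 32.7% hold a GC box and 33.8% a CCAAT box in their 250 upstream bases, while 3 of the sequences shown are 191 to 232 bases long. In Col8a2 the 2 matches nearest to the start overlap each other. The E-box core was found in 2 of 6, against 66.2% of all promoters. The TATA box, the AP-1 site and the SMAD element were found in none of the 6, against 12.4%, 6.75% and 0.167% of all promoters. All 21 genes with such a stretch were searched over the full 250 upstream bases, a longer window than some of the sequences shown. There the GC box was found in 15, the CCAAT box in 8, the E-box core in 11 and the TATA box in 3. A match is a description of the letters only, and no match says nothing of any factor. Postn, with the largest mean change, held none of the 6 motifs in this window, and 40.4% of its bases were G or C, against a median of 52.4% over all promoters.

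Between genotypes fewer matrix genes differed, and more were lower than higher in the libraries labelled KO. In GM, 4 of 38 were higher and 11 lower in KO than in WT, where 10% and 10.6% of all genes tested were called. In DM, 8 were higher and 15 lower, against 13.6% and 17.4% of all genes tested. The median difference was -0.15 in GM and -0.20 in DM, against -0.00 and -0.02 over all tested genes. In both media Col11a1, Col8a1 and Lamb2 were higher (Lamb2 in GM by 0.25 ± 0.08, a call lost without any 1 of 11 single libraries, for example KO GM replicate 3, at 0.13, adjusted p = 0.27), and 9 genes were lower: Dcn, Postn, Col4a1, Col4a2, Col6a3, Vcan, Lama5, Lama2 and Lamb1. The Lamb1 difference in DM, -0.33 ± 0.10, was lost without any 1 of 4 single libraries, for example KO DM replicate 3 (-0.28, adjusted p = 0.093). Leaving both GM replicate 3 libraries out, 5 were higher and 18 lower in GM, where the shares over all genes were 11.9% and 13.0%, and 12 were higher and 17 lower in DM, where they were 17.8% and 19.6%. Myogenic markers moved with the genotype label too: all 8 were lower in KO GM than in WT GM and 7 of 8 in KO DM than in WT DM, and their part in these differences was not tested.

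**Figure D3:**
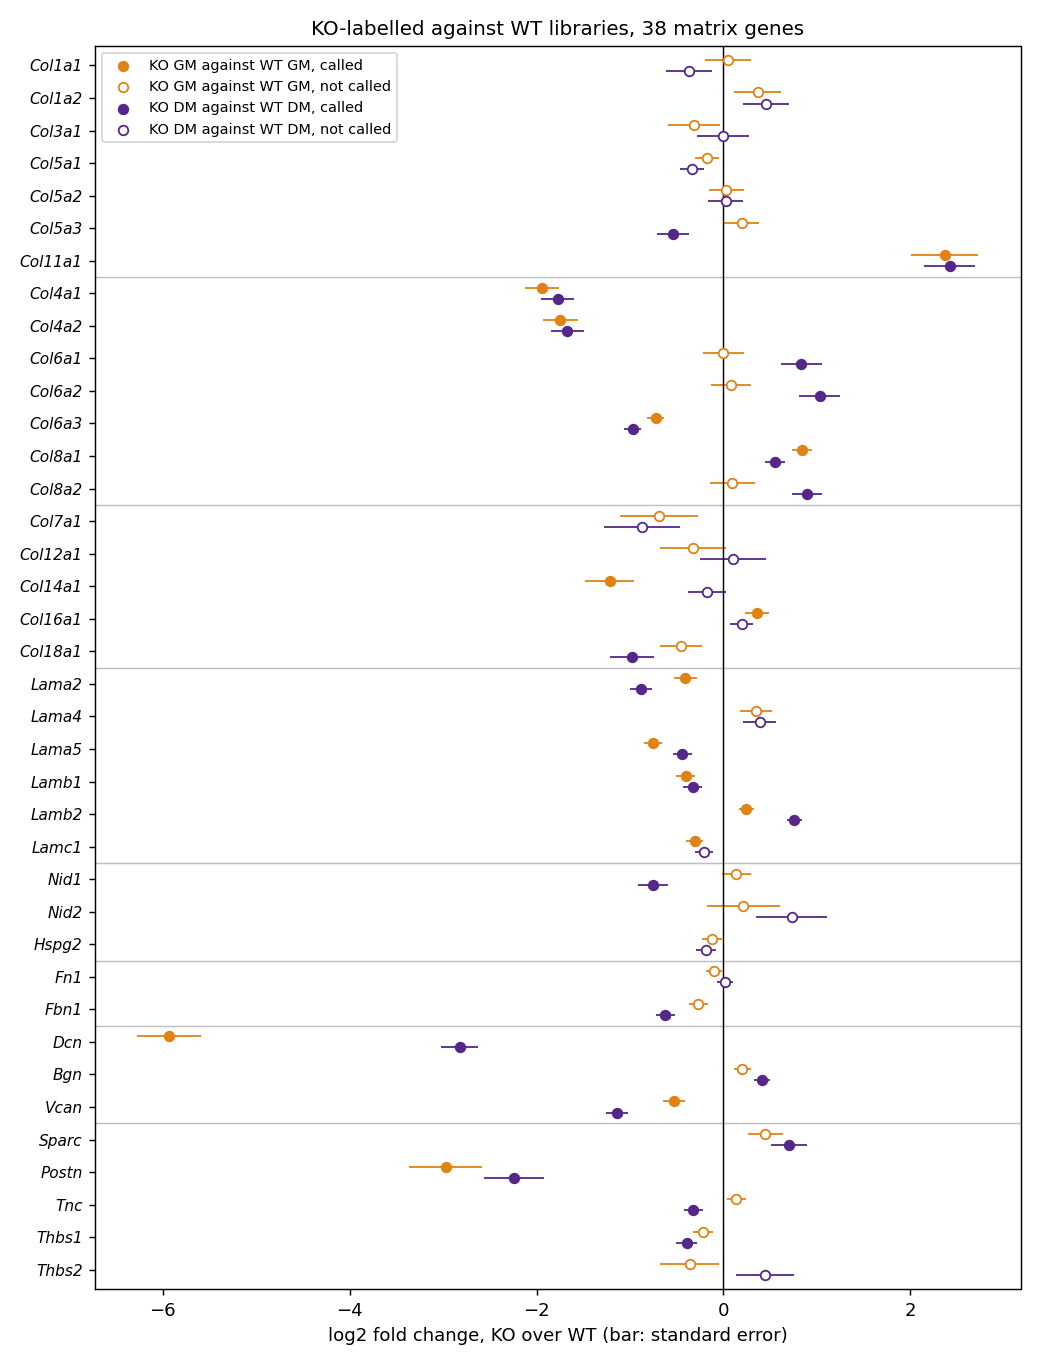
Log2 fold change of KO-labelled over WT libraries with its standard error for the 38 tested matrix genes, in GM (orange) and in DM (purple); filled points are called and open points are not. Dcn, Postn, Col4a1 and Col4a2 lie farthest to the left in both media, and Col11a1 farthest to the right.

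Fibril-forming collagens moved together with the medium. All 7 rose in KO DM (median 1.36) and 6 of 7 in WT DM (median 1.34), where 20.8% and 18.4% of all genes tested rose. Col1a1, which encodes the alpha1 chain of collagen I, was at 1151, 1186 and 1068 CPM in KO DM, against 343, 404 and 583 CPM in KO GM. In WT cells it was at 1232, 1393 and 1770 CPM in DM, against 320, 423 and 543 CPM in GM. DM and GM libraries did not overlap in either genotype, and the rise was 1.36 ± 0.25 in KO-labelled cells and 1.77 ± 0.25 in WT cells (adjusted p = 0.0025 and 0.00069). Col1a2, its partner chain, rose by 1.43 ± 0.25 and 1.34 ± 0.25. Col5a3, a chain of the fibril-nucleating collagen V, had the largest rise of the group in WT. It was at 141, 146 and 203 CPM in WT DM, against 31.2, 39.6 and 37.9 CPM in WT GM (2.17 ± 0.18, adjusted p = 4.8e-06). KO-labelled cells held 106, 112 and 119 CPM in DM, against 31.8, 41.6 and 50.6 CPM in GM (1.44 ± 0.18). All KO DM libraries lay below all WT DM libraries, a difference of -0.54 ± 0.17 (adjusted p = 0.034) that was no longer called without any 1 of 6 single libraries, such as WT DM replicate 3 (-0.33, adjusted p = 0.085). Col5a1 and Col5a2, the other collagen V chains, rose in both genotypes by 0.76 to 0.98. Col3a1 rose in KO DM (0.99 ± 0.28, adjusted p = 0.022), a call lost without KO GM replicate 1 (0.85, adjusted p = 0.077), KO GM replicate 2 (0.85, adjusted p = 0.078), KO DM replicate 2 (1.00, adjusted p = 0.052) or KO DM replicate 3 (1.00, adjusted p = 0.051). In WT its change of 0.68 ± 0.28 was not called (adjusted p = 0.099), but it was without both GM replicate 3 libraries (0.98).

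Among the fibril-forming genes, Col11a1 alone was called between genotypes in both media. It encodes a chain of collagen XI, which is best known from cartilage and sits within thin fibrils. Levels were 18.7, 25.9 and 22.5 CPM in KO DM, against 4.03, 2.96 and 5.48 CPM in WT DM. In GM they were 5.90, 4.33 and 9.57 CPM in KO, against 0.719, 1.18 and 1.89 CPM in WT. The KO libraries were above all WT libraries in each medium, by 2.42 ± 0.27 in DM and 2.37 ± 0.36 in GM (adjusted p = 2.3e-06 and 0.00012). It also rose with DM, by 1.76 ± 0.25 in KO-labelled cells and 1.70 ± 0.39 in WT cells. On the log2 scale the fitted difference between genotypes was thus similar in both media, and the fitted response to medium was similar in both genotypes. The interaction was 0.06 ± 0.56 (adjusted p = 0.97), an SE too wide to show that the responses were alike.

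Col4a1 and Col4a2 encode the chains of the main collagen IV of basement membranes. Their genes stand head to head on chromosome 8, where the annotated first exons overlap by 22 bp. Both rose with DM in both genotypes and both were lower in the libraries labelled KO. Col4a1 was at 94.8, 98.1 and 95.4 CPM in KO DM, against 293, 324 and 368 CPM in WT DM. In GM it was at 32.0, 41.0 and 57.9 CPM in KO, against 153, 161 and 190 CPM in WT. No KO library reached a WT library of the same medium, and even KO DM lay below WT GM. The genotype difference was -1.77 ± 0.18 in DM and -1.94 ± 0.18 in GM (adjusted p = 2.8e-05 and 3.4e-05). Col4a2 gave nearly the same values, -1.67 ± 0.18 in DM and -1.74 ± 0.18 in GM. Against GM, Col4a1 rose by 1.13 ± 0.18 in KO DM and by 0.97 ± 0.17 in WT DM, and Col4a2 by 0.97 ± 0.18 and 0.89 ± 0.17. The ratio of Col4a1 to Col4a2 counts varied little among groups: 0.868 ± 0.030 in KO DM, 0.773 ± 0.066 in KO GM, 0.931 ± 0.0095 in WT DM and 0.889 ± 0.052 in WT GM (SD, n = 3 each).

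Collagen VI, the beaded filament that links the basement membrane to the interstitial matrix, is assembled from the products of Col6a1, Col6a2 and Col6a3, and these did not move together. Col6a2 was at 1382, 1374 and 1378 CPM in KO DM, against 360, 400 and 577 CPM in KO GM (1.63 ± 0.22, adjusted p = 0.00033). WT cells held 594, 617 and 810 CPM in DM, against 338, 397 and 526 CPM in GM (0.68 ± 0.22, adjusted p = 0.040). The KO DM libraries were above every other library. The WT rise was lost without any 1 of 9 single libraries, for example WT DM replicate 3 (0.52, adjusted p = 0.13). Col6a1, which adjoins Col6a2 on chromosome 10, was at 2018, 2052 and 1981 CPM in KO DM, against 632, 690 and 979 CPM in KO GM (1.395 ± 0.222). In WT DM it was at 969, 1025 and 1396 CPM, against 611, 734 and 953 CPM in WT GM (0.56 ± 0.22, not called, adjusted p = 0.083). In DM the difference of KO from WT was 1.03 ± 0.22 for Col6a2 and 0.84 ± 0.22 for Col6a1 (adjusted p = 0.0063 and 0.019). The call of Col6a1 was lost without WT DM replicate 1 (0.75, adjusted p = 0.062) or WT DM replicate 2 (0.78, adjusted p = 0.064). Col6a3 went the other way. It was at 148, 172 and 177 CPM in KO DM, against 228, 253 and 215 CPM in KO GM (-0.48 ± 0.09), and at 303, 338 and 337 CPM in WT DM, against 393, 418 and 340 CPM in WT GM (-0.24 ± 0.09). In both media it was lower in KO than in WT, with no overlap of libraries (-0.97 ± 0.09 in DM, adjusted p = 2.3e-08, and -0.73 ± 0.09 in GM, adjusted p = 2.6e-06). The fall in WT (adjusted p = 0.044) was lost without any 1 of 6 single libraries, for example WT GM replicate 2 (-0.18, adjusted p = 0.19).

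Collagen VIII forms short-chain networks, best known beneath endothelia. Col8a2 was at 34.9, 31.3 and 37.6 CPM in KO DM, against 3.97, 4.42 and 5.23 CPM in KO GM. WT cells held 15.5, 14.7 and 25.4 CPM in DM, against 4.21, 3.76 and 4.79 CPM in GM. The GM groups overlapped, whereas all DM libraries were far above them and KO DM stood highest. The rise was 2.92 ± 0.19 in KO-labelled cells and 2.12 ± 0.20 in WT cells (adjusted p = 1e-10 and 3.9e-08), and in DM the level in KO was higher than in WT by 0.89 ± 0.16 (adjusted p = 0.00021). Col8a1, the partner chain, was at 308, 334 and 336 CPM in KO DM, against 188, 212 and 266 CPM in WT DM. In GM it was at 177, 185 and 204 CPM in KO, against 98.2, 99.0 and 119 CPM in WT. It was higher in KO by 0.55 ± 0.11 in DM and 0.84 ± 0.11 in GM, and it rose with DM by 0.79 ± 0.11 in KO-labelled and 1.07 ± 0.11 in WT cells.

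Fibril-associated and other collagens differed from one another. Col14a1, whose product coats fibril surfaces, was at 10.02, 11.4 and 11.04 CPM in KO DM, against 2.04, 1.39 and 2.92 CPM in KO GM. In WT it was at 11.05, 11.8 and 13.8 CPM in DM, against 4.32, 3.86 and 6.58 CPM in GM. The rises were 2.35 ± 0.24 and 1.31 ± 0.22 (adjusted p = 7.7e-08 and 6e-05), and the genotype difference was called in GM (-1.22 ± 0.27) but not in DM (-0.18 ± 0.20). The difference between these responses, 1.04 ± 0.33, missed the threshold (adjusted p = 0.053), and was called without both GM replicate 3 libraries (1.13, adjusted p = 0.020). Col18a1, a basement membrane multiplexin from which endostatin is cut, fell. It was at 48.8, 49.0 and 44.6 CPM in KO DM, against 121, 147 and 111 CPM in KO GM (-1.41 ± 0.24, adjusted p = 0.0013). In WT it was at 92.1, 96.9 and 91.5 CPM in DM, against 221, 189 and 109 CPM in GM (-0.89 ± 0.23, adjusted p = 0.016). Libraries did not overlap in either genotype. The fall in WT was lost without WT DM replicate 3 (-0.87, adjusted p = 0.053) or WT GM replicate 2 (-0.83, adjusted p = 0.051). In DM it was lower in KO than in WT by -0.98 ± 0.24 on the log2 scale, a call lost without KO DM replicate 3 (-0.92, adjusted p = 0.052). Col16a1, another fibril-associated collagen, rose by 0.38 ± 0.12 in KO DM, a call lost without KO GM replicate 1 (0.27, adjusted p = 0.10), and by 0.55 ± 0.13 in WT DM. Its call between genotypes in GM (0.36 ± 0.13, adjusted p = 0.048) was lost without any 1 of 8 single libraries, for example KO GM replicate 3 (0.27, adjusted p = 0.19). Col7a1, the anchoring fibril collagen, and Col12a1 were not called in any comparison with all 12 libraries in edgeR. Col12a1 was at 945, 1119 and 1109 CPM in KO DM, against 505, 537 and 1051 CPM in KO GM. In WT GM it was at 557, 783 and 1277 CPM, so replicate 3 was the highest library of each GM group. With these replicate 3 libraries left out, Col12a1 was called higher in DM in KO-labelled cells (1.05, adjusted p = 0.0010) and in WT cells (0.55, adjusted p = 0.026). Removing the highest GM libraries widens the gap to DM by itself, so these calls are no separate support for a rise.

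Laminins are trimers of an alpha, a beta and a gamma chain, and the beta chains moved apart. Lamb2, the beta2 chain that is concentrated at the neuromuscular junction, was at 234, 238 and 242 CPM in KO DM, against 115, 127 and 151 CPM in KO GM. WT cells held 139, 133 and 149 CPM in DM, against 112, 113 and 107 CPM in GM. The KO DM libraries stood above all others. The rise was 0.86 ± 0.08 in KO-labelled cells and 0.35 ± 0.08 in WT cells (adjusted p = 2.1e-08 and 0.0024). Lamb1, the beta1 chain, fell. It was at 259, 286 and 253 CPM in KO DM, against 425, 503 and 423 CPM in KO GM (-0.76 ± 0.10), and at 339, 322 and 340 CPM in WT DM, against 673, 632 and 482 CPM in WT GM (-0.84 ± 0.10). The ratio of Lamb2 to Lamb1 counts was 0.897 ± 0.060 in KO DM, 0.293 ± 0.055 in KO GM, 0.421 ± 0.015 in WT DM and 0.189 ± 0.029 in WT GM (SD, n = 3 each). It was highest in KO DM and lowest in WT GM, and in each genotype the DM libraries were all above the GM libraries. Such ratios compare libraries, not amounts of the chains, since counts are not per length.

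Of the other laminin chains, Lamc1, the common gamma1 chain, fell with DM by 0.33 ± 0.09 in KO-labelled cells (0.21, adjusted p = 0.057, without KO GM replicate 3) and by 0.43 ± 0.09 in WT cells. Its lower level in KO GM than in WT GM (-0.31 ± 0.09), where libraries overlapped, was lost without any 1 of 4 single libraries, for example KO GM replicate 1 (-0.21, adjusted p = 0.12). Lama2, the alpha2 chain of the mature muscle basement membrane whose loss causes congenital muscular dystrophy, rose. It was at 20.9, 26.1 and 25.1 CPM in KO DM, against 42.7, 49.1 and 41.4 CPM in WT DM, and all KO libraries were below all WT libraries (-0.88 ± 0.12, adjusted p = 3.5e-06). In GM it was at 15.4, 19.4 and 19.6 CPM in KO, against 22.1, 26 and 24.5 CPM in WT (-0.41 ± 0.12, adjusted p = 0.020; not called without KO GM replicate 1, at -0.32, adjusted p = 0.11, or WT GM replicate 2, at -0.36, adjusted p = 0.089). Its rise with DM was 0.40 ± 0.12 in KO-labelled cells (0.31, adjusted p = 0.070, without KO GM replicate 1) and 0.88 ± 0.12 in WT cells. Lama5, the alpha5 chain, was lower in KO by -0.44 ± 0.10 in DM and -0.75 ± 0.10 in GM on the log2 scale. Lama4, a chain of endothelial and fetal muscle laminins, was at 134, 151 and 138 CPM in KO DM, against 96.4, 110 and 117 CPM in WT DM. The KO DM libraries were all above the WT DM libraries, but the difference of 0.39 ± 0.17 was not called (adjusted p = 0.12). It was called in 8 of 23 alternatives, for example with DESeq2 on all 12 libraries (0.40, adjusted p = 0.023) and without both GM replicate 3 libraries (0.41, adjusted p = 1.5e-05).

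**Figure D4:**
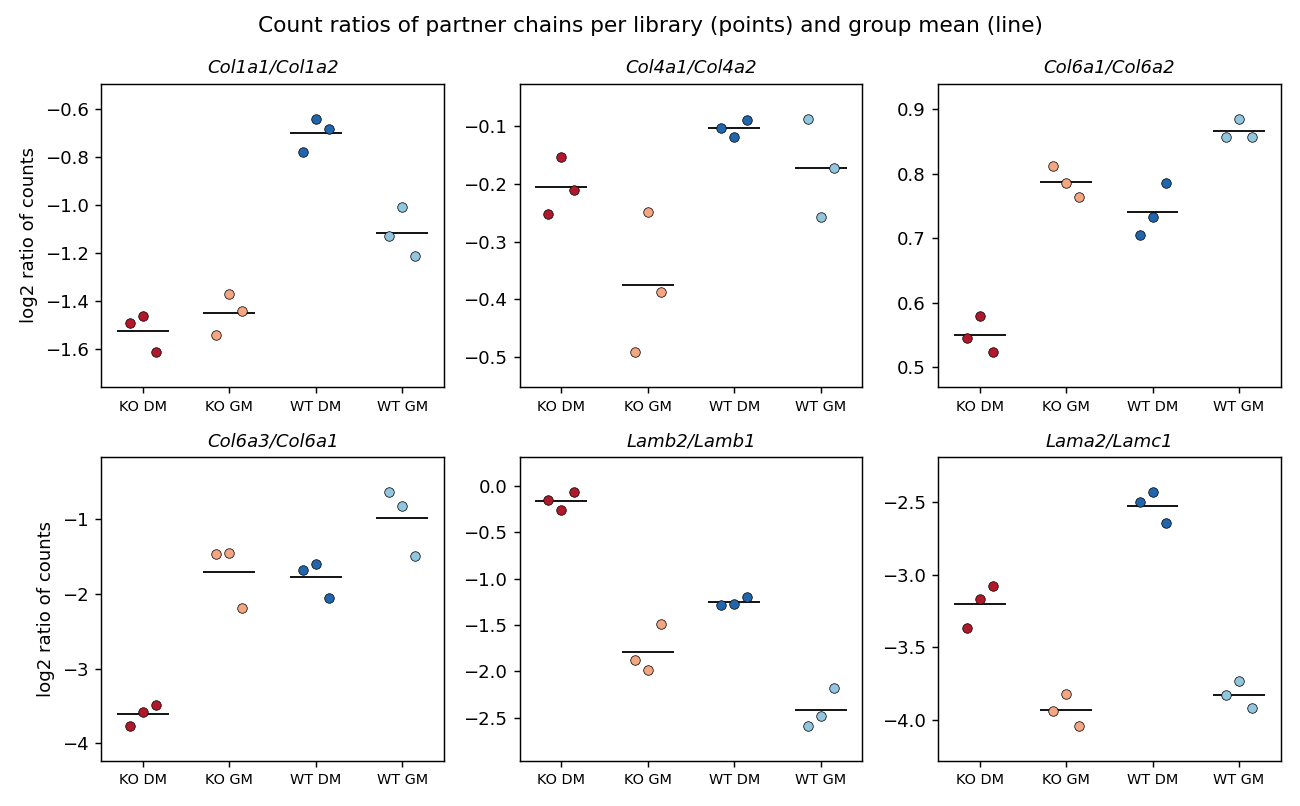
Log2 ratio of the counts of 2 chains in each library (points) with the group mean (line), for 6 pairs of chains; groups run KO DM, KO GM, WT DM, WT GM. Col6a3/Col6a1 lies lowest in KO DM, Lamb2/Lamb1 lies highest there, and Col1a1/Col1a2 is lower in the KO libraries than in the WT libraries of either medium.

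Count ratios showed further shifts between partner chains. Col1a1 to Col1a2 was 0.348 ± 0.019 in KO DM, against 0.617 ± 0.030 in WT DM, and 0.367 ± 0.022 in KO GM, against 0.462 ± 0.033 in WT GM, with no overlap between genotypes in either medium. Col6a3 to Col6a1 was 0.0823 ± 0.0082 in KO DM and 0.316 ± 0.084 in KO GM, and 0.294 ± 0.047 in WT DM and 0.523 ± 0.149 in WT GM (SD, n = 3 each). These ratios were described without a test.

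The nidogens, which bridge laminin and collagen IV, changed in opposite directions with the medium. Nid1 was at 419, 476 and 359 CPM in KO DM, against 1339, 1444 and 1187 CPM in KO GM (-1.66 ± 0.16, adjusted p = 1e-05). In WT it was at 713, 795 and 600 CPM in DM, against 1391, 1269 and 948 CPM in GM (-0.78 ± 0.16, adjusted p = 0.0031). The GM groups overlapped, and KO DM was lowest, below WT DM by -0.75 ± 0.16 on the log2 scale (adjusted p = 0.0043). Nid2 was at 728, 759 and 770 CPM in KO DM, against 123, 118 and 276 CPM in KO GM. WT cells held 385, 437 and 538 CPM in DM, against 99.2, 127 and 220 CPM in GM. In both genotypes every DM library was above every GM library (2.13 ± 0.40, adjusted p = 0.0028, in KO-labelled cells; 1.61 ± 0.40, adjusted p = 0.014, in WT cells). The rise in WT was lost without WT GM replicate 1 (1.38, adjusted p = 0.053) or WT GM replicate 2 (1.497, adjusted p = 0.056). Nid2 to Nid1 counts stood at 1.83 ± 0.29 in KO DM and 0.135 ± 0.084 in KO GM, and at 0.662 ± 0.203 in WT DM and 0.134 ± 0.086 in WT GM, a ratio added after its values were seen. Exons of Nid2 overlap another gene, Rtraf, over 8.45% of their length. Hspg2, which encodes perlecan, rose by 0.41 ± 0.11 in KO-labelled cells and 0.48 ± 0.11 in WT cells.

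Fibronectin and fibrillin 1, on which collagen and elastic fibres are laid down, rose in both genotypes. Fn1 was at 5439, 6324 and 5819 CPM in KO DM, against 3058, 3449 and 3588 CPM in KO GM (0.80 ± 0.08), and it rose by 0.68 ± 0.08 in WT. Genotypes overlapped in both media. Fbn1 rose by 0.92 ± 0.10 in KO-labelled cells and 1.27 ± 0.10 in WT cells, and was at 245, 268 and 281 CPM in KO DM, against 358, 413 and 449 CPM in WT DM (-0.62 ± 0.10, adjusted p = 8.3e-05). Of the exon length of Fbn1, 20.1% overlaps Gm9913 on the opposite strand, and reads of such a pair cannot be told apart without strand.

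Dcn, whose product decorin binds collagen fibrils and growth factors, showed the widest range of the 38 tested genes. It was at 5.16, 4.01 and 6.22 CPM in KO DM, against 0.107, 0.260 and 0.354 CPM in KO GM. In WT cells it was at 35.3, 35.2 and 38.6 CPM in DM, against 11.9, 14.2 and 21.5 CPM in GM. All KO libraries were below all WT libraries, whatever the medium. KO GM held 8 counts over its 3 libraries, KO DM 161 and WT GM 464. By counts, KO DM was 20.6 times KO GM (95% interval 10.2 to 48.6), and KO GM was lower than WT GM by a factor of 64.1 (32.3 to 149). The fitted changes were 4.301 ± 0.408 for DM over GM in KO-labelled cells, 1.19 ± 0.17 in WT cells, -2.82 ± 0.20 for KO over WT in DM and -5.93 ± 0.34 in GM (adjusted p = 4.3e-11). Bgn, the related biglycan gene, behaved otherwise. It was at 3813, 3877 and 3532 CPM in KO DM, against 2446, 2822 and 3159 CPM in WT DM, with KO above WT (0.41 ± 0.09, adjusted p = 0.00096), and it rose with DM by 0.80 ± 0.09 in KO-labelled cells and 0.59 ± 0.09 in WT cells.

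Vcan encodes versican, the large hyaluronan-binding proteoglycan of provisional matrix. It was at 171, 193 and 150 CPM in KO DM, against 307, 292 and 359 CPM in KO GM (-0.90 ± 0.12, adjusted p = 1.1e-05). In WT it was at 398, 406 and 323 CPM in DM, against 399, 473 and 510 CPM in GM (-0.29 ± 0.12, not called, adjusted p = 0.061). That change was called lower in 12 of 23 alternatives, for example with DESeq2 (adjusted p = 0.039), and not without both GM replicate 3 libraries (-0.22, adjusted p = 0.15). The WT groups overlapped, and every KO DM library was below every other library. KO was lower than WT in DM (-1.13 ± 0.12, adjusted p = 1.4e-06) and in GM (-0.53 ± 0.12, adjusted p = 0.0033).

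Of 5 matricellular genes, 3 rose and 2 fell with DM in KO-labelled cells, beside 20.8% and 19.8% of all genes. In WT cells 2 rose and 0 fell, beside 18.4% and 14.8%. None of the 5 was called in the interaction, so a difference in response between genotypes was not shown. Postn, which encodes periostin and whose promoter is the one without a motif match, was at 84.7, 92.4 and 100 CPM in KO DM, against 8.05, 8.57 and 12.4 CPM in KO GM. WT cells held 367, 410 and 536 CPM in DM, against 48.2, 61.6 and 119 CPM in GM. The 4 groups stood apart except for KO DM, which lay within the range of WT GM. Rises were 3.25 ± 0.39 and 2.52 ± 0.32 (adjusted p = 0.00018 and 0.00039), and KO was lower than WT by -2.24 ± 0.32 in DM and -2.97 ± 0.39 in GM on the log2 scale (adjusted p = 0.00081 for both). Sparc, a collagen chaperone and binding protein, rose by 1.19 ± 0.19 and 0.93 ± 0.19. In DM it was at 7241, 7104 and 6934 CPM in KO, against 3853, 4126 and 5048 CPM in WT (0.71 ± 0.19, adjusted p = 0.021), a difference lost without KO DM replicate 1 (0.72, adjusted p = 0.052), WT DM replicate 1 (0.64, adjusted p = 0.068) or WT DM replicate 2 (0.68, adjusted p = 0.065). Thbs2, an anti-angiogenic thrombospondin, rose in KO DM (1.19 ± 0.32, adjusted p = 0.016). That call was lost without KO GM replicate 1 (1.00, adjusted p = 0.052) or KO GM replicate 2 (1.03, adjusted p = 0.060). In WT the change of Thbs2 was 0.39 ± 0.31, and it was called without both GM replicate 3 libraries (0.64). Thbs1, the related thrombospondin 1 gene, and Tnc, which encodes the adhesion-modulating tenascin C, fell in KO DM by 0.31 ± 0.11 and 0.45 ± 0.10. Neither was called in WT DM against WT GM. Both were lower in KO DM than in WT DM, by -0.39 ± 0.11 and -0.32 ± 0.10 on the log2 scale. The fall of Thbs1 was lost without any 1 of 8 single libraries, for example KO GM replicate 3 (-0.16, adjusted p = 0.18), and each of the differences from WT DM without any 1 of 4, for example WT DM replicate 3 (-0.27, adjusted p = 0.079, for Thbs1; -0.20, adjusted p = 0.18, for Tnc).

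**Figure D5:**
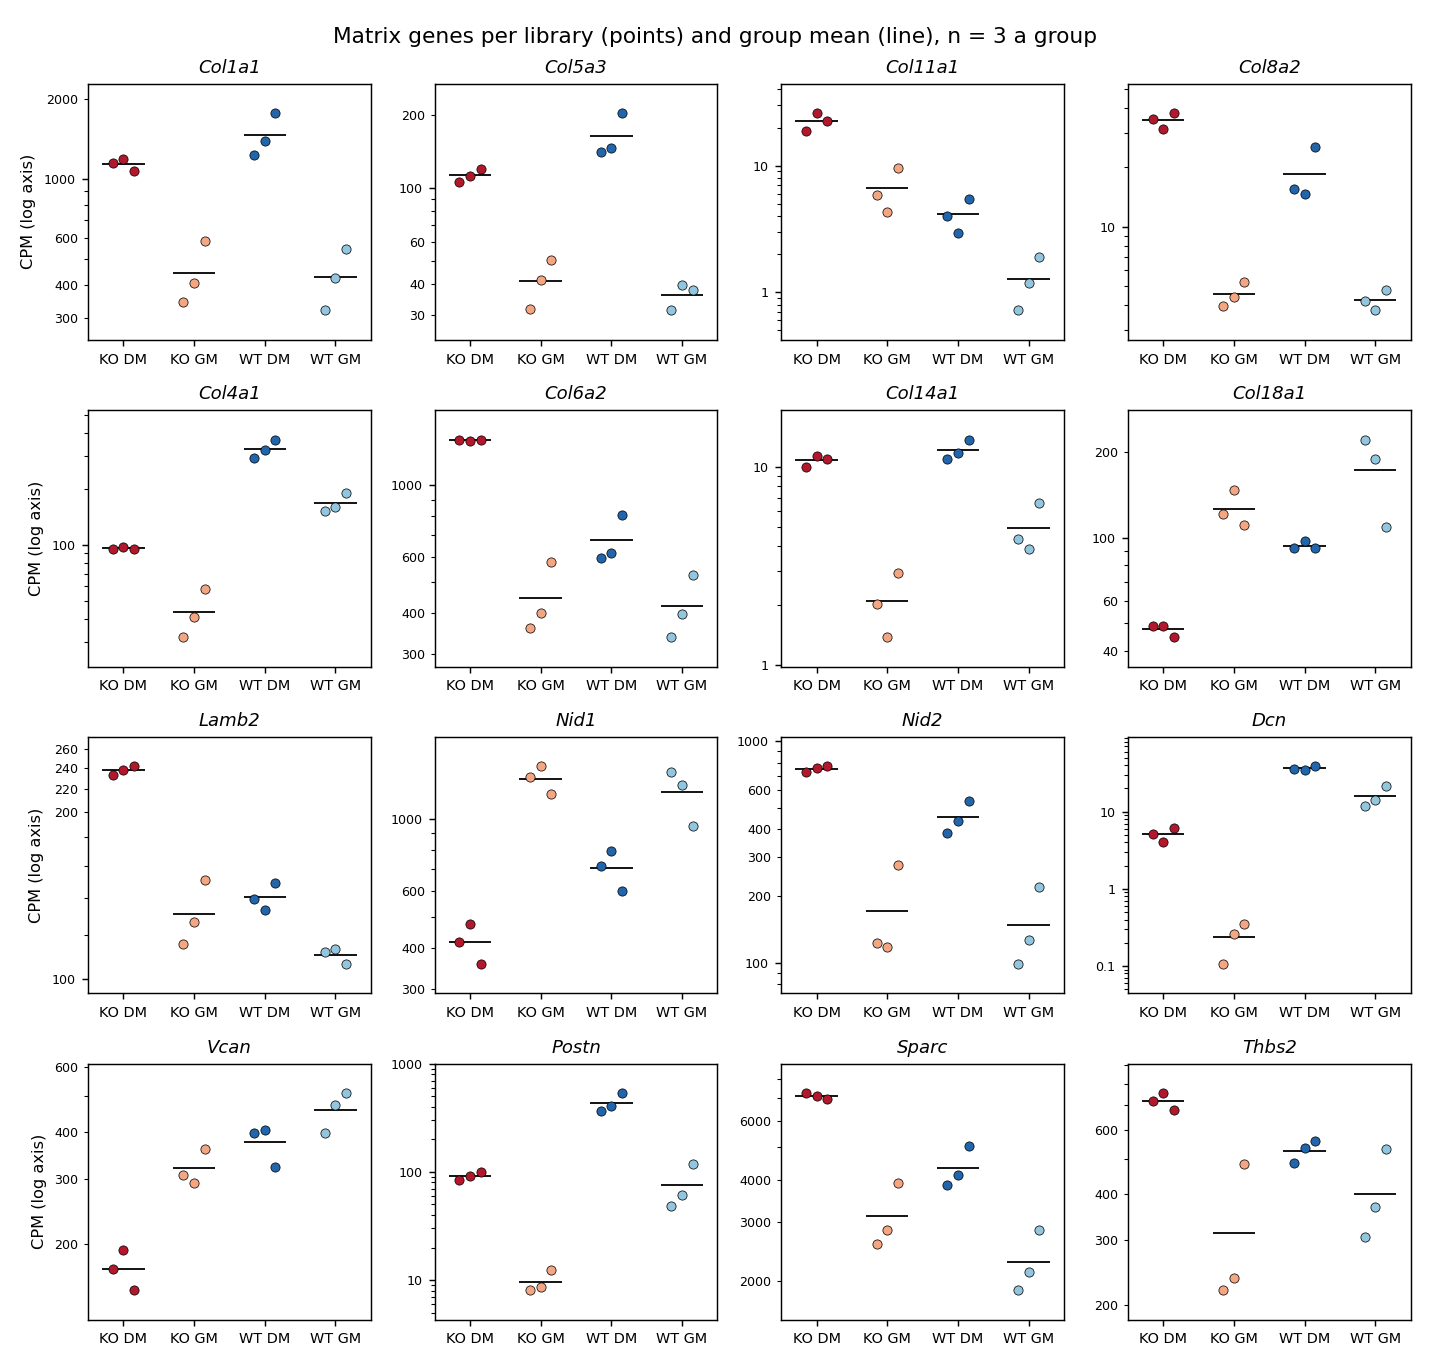
Level of 16 matrix genes in each library (points, CPM on a log axis) with the group mean (line), for KO DM, KO GM, WT DM and WT GM. Dcn, Postn and Col4a1 lie lower in the KO groups than in the WT groups of the same medium, Col11a1 lies higher there, and Nid1 and Nid2 move in opposite directions between DM and GM.

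The interaction asks whether the response to DM differed between KO-labelled and WT cells, taken as the KO-labelled response minus the WT response. Of 38 genes, 2 were called higher (5.26%) and 2 lower (5.26%), near the shares over all genes tested, 3.61% and 5.25%. With total counts alone as the scaling, they were 3 higher and 1 lower, and over all genes 683 were higher and 498 lower in place of 478 and 696. Dcn had the larger rise in KO-labelled cells, from a level near the floor (3.11 ± 0.49, adjusted p = 0.00035), and so did Lamb2 (0.51 ± 0.12, adjusted p = 0.0073). Nid1 (-0.89 ± 0.22, adjusted p = 0.034) and Vcan (-0.61 ± 0.16, adjusted p = 0.030) fell more in KO-labelled cells. The calls of Dcn and Lamb2 held in all 22 alternatives run for the interaction. Those of Nid1 and Vcan were each lost without any 1 of 7 single libraries, for example KO DM replicate 3 (-0.77, adjusted p = 0.067, for Nid1; -0.50, adjusted p = 0.076, for Vcan). Leaving out both GM replicate 3 libraries gave 11 genes higher and 3 lower, with Thbs2 (1.04), Col6a2 (1.01), Col6a1 (0.89) and Nid2 (0.67) among those added. Over all genes the shares in that fit were 10.2% higher and 9.94% lower, so the 3 lower matrix genes were no larger a share of the 38 than of all genes. For the remaining genes a difference in response was not shown, which does not show that the responses were alike.

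Genes whose products modify, fold and cut procollagen changed in both directions. Of 25 tested genes for collagen biosynthesis and secretion, 13 rose and 4 fell in KO DM against KO GM (median 0.38), beside 20.8% and 19.8% of all genes, and 9 rose and 4 fell in WT DM against WT GM (median 0.21), beside 18.4% and 14.8%. Adamts2, Bmp1 and Pcolce, which remove the propeptides or enhance that step, rose in both genotypes. The rise was 1.45 ± 0.20 in KO-labelled and 1.01 ± 0.20 in WT cells for Adamts2, and 1.01 ± 0.09 and 0.72 ± 0.09 for Bmp1. Not all related genes on this list went that way. Adamts14 was at 30.9, 28.4 and 24.6 CPM in KO DM, against 53.1, 56.4 and 39.8 CPM in KO GM. In WT it was at 79.1, 74.3 and 75.7 CPM in DM, against 77.0, 69.8 and 51.9 CPM in GM. Between genotypes, DM libraries labelled KO had 12 of 25 higher and 3 lower, beside 13.6% and 17.4% of all genes, and GM libraries labelled KO had 9 higher and 3 lower, beside 10% and 10.6%. The counts of lower genes were near those shares. P3h3, a prolyl 3-hydroxylase family gene, was higher by 1.22 ± 0.10 in DM and 0.77 ± 0.10 in GM, and Adamts3 was lower by -1.89 ± 0.41 and -3.03 ± 0.46 on the log2 scale.

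Markers of other cell types were set beside these results. Of 10 fibroblast and fibro-adipogenic progenitor markers 8 had a count, with none for Tcf21 and Dpp4, and their summed level was 384 to 409 CPM in KO DM, 358 to 429 CPM in KO GM, 413 to 424 CPM in WT DM and 366 to 415 CPM in WT GM. KO DM lay below WT DM on this sum by a small margin, while the GM groups overlapped. Its members did not move together: of 5 tested, Cd34 (0.70 ± 0.08) and Pdgfra (0.49 ± 0.09) were higher in KO DM than in WT DM, and Cd248 (-0.90 ± 0.13) and Ly6a (-0.61 ± 0.15) were lower. Endothelial markers were near absent, at no more than 0.797 CPM in sum in any library, with Emcn and Cldn5 at 0. Of 8 macrophage and leukocyte markers Ptprc, Adgre1 and Tyrobp were at 0, and the sum, mostly Cd14 and Csf1r, was 32.4 to 40.1 CPM in KO DM, 39.5 to 46.1 CPM in KO GM, 19.2 to 22.3 CPM in WT DM and 34.3 to 47.7 CPM in WT GM. Epithelial markers, with Epcam and Krt18 at 0 and nearly all counts in Krt14, summed to 13.4 to 14.4 CPM in KO DM, 2.34 to 4.43 CPM in KO GM, 1.73 to 4.90 CPM in WT DM and 0.897 to 1.85 CPM in WT GM. Schwann and neural markers, with Sox10 at 0 and nearly all counts in Tubb3, summed to 6.50 to 7.74 CPM in KO DM, 14.9 to 18.6 CPM in KO GM, 50.8 to 51.7 CPM in WT DM and 45.8 to 56.3 CPM in WT GM. The part of these genes in the matrix results was not tested.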

How the data were processed

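RNA-seq was deposited by the authors as 1 table of whole-number gene counts for 12 libraries, with no normalization. The submitters' processing notes name the build GRCm39 and, as tools, RSEM 1.3.3, STAR 2.7.1a, DESeq2 1.40.2 and R 4.3.1. The sources used here do not give the annotation release or strand setting, so reads shared with overlapping genes cannot be told apart (15 of the 42 genes share some exon sequence with another gene in GENCODE annotation). The 4 empty columns were not used.

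The counts went into edgeR 4.0.16 under R 4.3.3: filterByExpr, TMM scaling and 1 robust quasi-likelihood fit over all 12 libraries with a mean per group. Contrasts were 2-sided, p was adjusted by Benjamini-Hochberg over 13250 genes, and calls were made below 0.05. The SE is the change divided by the root of the F statistic. The script was tested on simulated data. Transcript lengths were those of the longest protein-coding transcript. The labels do not say whether the replicates were separate cultures, so the p-values measure only the spread between these libraries. Same-numbered replicates were not paired in the fit.

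The genes and lists were chosen with earlier results of these data known. Values in every library are given for the called genes with the largest changes of each contrast, for genes called in the interaction and for their partner chains. DESeq2 1.42.0, limma-voom (limma 3.58.1), other scalings, filters and sample sets were tried as alternatives.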

Additional observations from a re-analysis of the deposited data

Results flagged for a closer look

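In 4 genes the response to DM differed between KO-labelled and WT cells by the interaction test, which is what singled them out. The 2 higher and 2 lower were each 5.26% of the 38 genes. These counts were near the shares over all genes tested, 3.61% and 5.25%. The difference, KO response minus WT response on the log2 scale, was 3.108 for Dcn, 0.5147 for Lamb2, -0.8871 for Nid1 and -0.605 for Vcan. Over the alternatives, the difference for Dcn lay between 2.83 and 3.48 with adjusted p of at most 0.0149, and that for Lamb2 between 0.45 and 0.68 with adjusted p of at most 0.0298. For Nid1 it lay between -0.98 and -0.72 and for Vcan between -0.68 and -0.48, with adjusted p up to 0.108 and 0.0921. The Dcn value rests on 8 counts over the 3 KO GM libraries.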

How the results depend on the processing

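Over 23 alternatives and 38 genes, 4332 changes were recomputed: 123 calls were lost and 131 gained, no called change reversed, and 106 of 1790 values called in neither fit changed sign. Calls held in every alternative for 29 of 35 genes in KO DM against KO GM, 24 of 28 in WT DM against WT GM, 11 of 15 in KO GM against WT GM, 16 of 23 in KO DM against WT DM and 2 of 4 in the interaction. Among changes not called, Vcan in WT DM against WT GM was called in 12 of 23 alternatives, Col5a1 and Lama4 in KO DM against WT DM in 10 and 8 of 23, and Col14a1 in the interaction in 10 of 22. For KO GM against WT GM, the 4 genes higher became 2 with total counts alone and 2 with only the groups of the contrast. Over all genes the share higher went from 10% to 8.87% and 6.84% in these fits. The 11 lower became 18 without both GM replicate 3 libraries, where the share lower over all genes went from 10.6% to 13%. For the interaction, the 2 higher became 4 with DESeq2, 4 with limma-voom, 4 with no filter on low counts and 4 without robust dispersion. Over all genes 4.05%, 3.5%, 3.25% and 3.53% were higher in these fits, against 3.61% in the main fit. Without both GM replicate 3 libraries 11 were higher, where the share over all genes was 10.2%. The 2 lower became 1 with total counts alone, 4 with DESeq2 and 4 with no filter. Over all genes 3.76%, 5.44% and 3.54% were lower there, against 5.25% in the main fit. The cause of these changes was not tested. Leaving out single libraries gave 3 to 6 genes lower in WT DM against WT GM, 2 to 5 higher and 9 to 14 lower in KO GM against WT GM, and 2 to 6 higher and 0 to 2 lower in the interaction. Over all genes these single-library fits called 11% to 17% lower in WT DM against WT GM. They called 7.15% to 10.9% higher and 8.38% to 11.6% lower in KO GM against WT GM. For the interaction the shares were 2.18% to 7.18% higher and 2.97% to 7.04% lower. The fit of only the groups of the contrast is the main fit for the interaction.

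Same-numbered libraries of different groups correlated by -0.0851 to 0.186 in their deviations, with 4 of 18 pairs over 0.1. The highest value was that between the KO GM and WT GM replicate 3 libraries. Each deviation is from a mean of only 3 libraries, so these values do not settle whether the numbers pair the libraries. With a replicate block, the interaction had 6 genes higher and 5 lower. Over all genes 5.03% were then higher and 6.95% lower, against 3.61% and 5.25% without the block. With 3 libraries a group, a 3 against 3 permutation cannot go below 0.1, and genes near the floor, such as Dcn in KO GM, are limited by their counts. The share of counts held by the 42 genes kept its direction in each comparison, also without both GM replicate 3 libraries, which was tried after seeing the data.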

Other observations

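Other matrix genes, outside the 42, were called in both directions between genotypes. Of 37 tested glycoprotein and proteoglycan genes, DM libraries labelled KO had 12 higher and 8 lower than WT, beside 13.6% and 17.4% of all genes, and GM libraries labelled KO had 6 higher and 7 lower, beside 10% and 10.6%. Smoc1 and Smoc2, which encode SPARC-related calcium-binding proteins, were lower in KO by -3.85 ± 0.18 and -2.87 ± 0.19 in DM and by -4.17 ± 0.17 and -3.07 ± 0.18 in GM (log2). Npnt, which encodes the basement membrane integrin ligand nephronectin, fell with DM in KO-labelled cells, at -1.302 ± 0.087, against -0.08 ± 0.08 in WT, an interaction of -1.22 ± 0.12. Of 7 tested further collagen genes, the transmembrane collagen gene Col23a1 was higher in KO by 2.58 ± 0.18 in DM and 3.34 ± 0.29 in GM, and Col4a5, a collagen IV chain gene, was lower by -1.98 ± 0.30 and -1.06 ± 0.35 (log2).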
